A study of Sus scrofa with 2 samples.

Results

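Alpha nuclei are the nuclei of the glucagon-producing cells of the pancreatic islet. They were chosen by a rule on measured RNA among the barcodes of 2 single-nucleus RNA-sequencing libraries, 1 from a WT pig and 1 from a PIGinH11 pig. A barcode marks the RNA of one droplet, and a unique molecular identifier (UMI) marks each RNA molecule. A barcode was taken as an alpha nucleus when it had 270 to 3700 genes and fewer than 13000 UMIs. The endocrine genes PCSK2, KCNB2, GRIA3, NOL4, RIMS2, RAB3C and SNTG1 together had to reach 3 UMIs and 0.5% of its UMIs. GCG, which encodes glucagon, had to reach 2 UMIs and at least the UMIs of INS, SST and PPY each. The acinar transcription factor RBPJL had to stay below 0.1% of its UMIs. The rule found 57 WT and 65 PIGinH11 alpha nuclei, which makes 122 of 28583 barcodes.

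Both pigs were Bama pigs of 18 months, fed a control diet to the age of 6 months and a high-fat and high-sucrose diet (HFHSD) for the following 12 months. The PIGinH11 pig carried GIPRdn (a dominant-negative receptor for the incretin GIP), hIAPP (human islet amyloid polypeptide) and PNPLA3I148M as a knock-in, and the WT pig carried none of them. Per the study's description, the transgenes are driven in beta cells or liver. Each group had 1 library from 1 pig, made from the body of the pancreas, with no replicate animal. No test between the groups was therefore made, and all intervals given are exact 95% intervals that cover counting error only, not the spread between nuclei or between animals.

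Alpha cells release glucagon when blood glucose is low, and glucagon makes the liver release glucose. Amino acids also stimulate glucagon release, and glucagon in turn promotes the breakdown of amino acids by the liver. Proglucagon is cut to glucagon by the convertase PCSK2.

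The label was first checked on genes that the rule did not use. TMEM132D, SLC7A2 and IRX2 are alpha markers, of which IRX2 is an Iroquois transcription factor and SLC7A2 a transporter of cationic amino acids. At least 1 of the 3 was found in 56 of 57 WT and 63 of 65 PIGinH11 alpha nuclei, and all 3 were found in 17 and 16 nuclei. In beta nuclei, chosen in the same way by INS, the share with at least 1 of these markers was 73.5% and 68.4%, and in acinar nuclei, defined by RBPJL, it was 12.4% and 12.5%. In delta nuclei that share was 66.7% of 18 in WT and 11.5% of 26 in PIGinH11. TMEM132D was found in 50% and 3.85% of the delta nuclei, and SLC7A2 in 44.4% and 7.69%. TMEM132D separated alpha nuclei from beta and acinar nuclei more than SLC7A2 did. TMEM132D (chromosome 14:25144440-25919018, Sscrofa11.1) had 2555 CPM in WT and 3988 CPM in PIGinH11 alpha nuclei, where CPM are the UMIs of a gene per 1000000 UMIs summed over the nuclei of a class. Its level was 98.6 and 42.4 CPM in beta nuclei and 11.2 and 21.2 CPM in acinar nuclei. SLC7A2 (chromosome 17:5191973-5271849) had 1515 and 1473 CPM in alpha nuclei, and 72.9% of WT beta nuclei also held a UMI of it. IRX2 (chromosome 16:78305869-78322776) was sparse, with 27 and 26 UMIs in 18 and 17 alpha nuclei, against 4 and 0 UMIs in beta nuclei. These genes were measured in nuclei that a hormone had sorted, so the values describe the classes and were not tested.

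SST and PPY were rare in the alpha nuclei, in part because the rule let no other hormone exceed GCG. SST had 3 and 2 UMIs over all alpha nuclei and PPY 2 and 1. INS was less rare, with 66 UMIs in the WT and 24 UMIs in the PIGinH11 alpha nuclei. It reached 2 or more UMIs in 20 and 4 of these nuclei. A UMI of INS was present in 63.2% of WT alpha nuclei (median depth 3835 UMIs) and in 45.9% of WT acinar nuclei (median 3721), which do not make insulin. In the PIGinH11 library the shares were 21.5% (median 2722) and 14.3% (median 1783). With each nucleus thinned to 500 UMIs, they were 21.1% and 9.82% in WT and 3.08% and 4.72% in PIGinH11. At equal depth, the share in PIGinH11 alpha nuclei was not above that in acinar nuclei, while the WT share was above it. A single PIGinH11 alpha nucleus held 7 of the 24 INS UMIs, and the source of INS in the alpha nuclei was not tested.

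**Figure D1:**
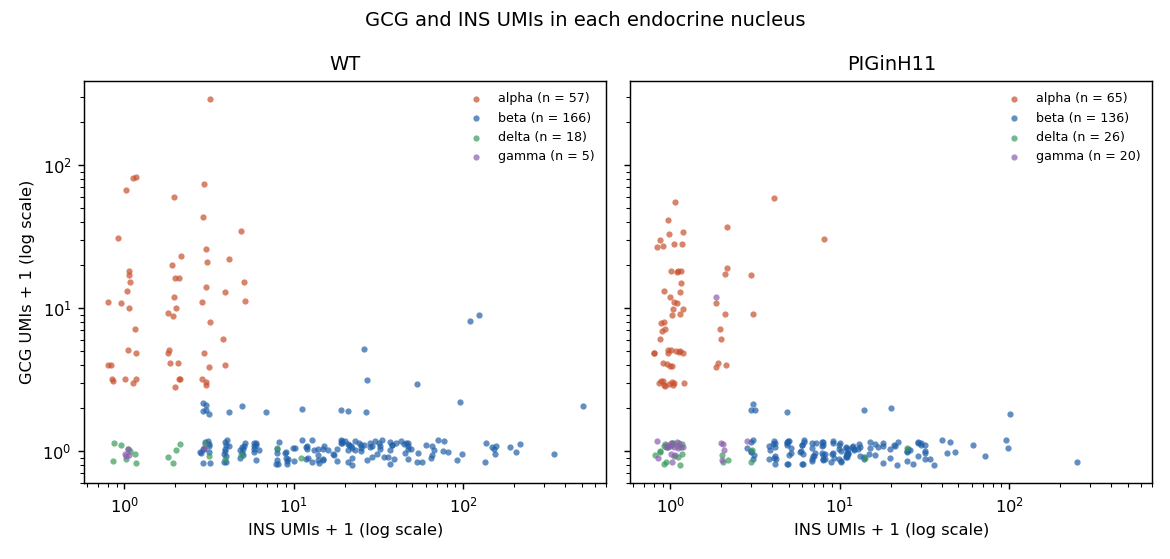
GCG UMIs (y axis) against INS UMIs (x axis), each plus 1 on a log scale with a small random shift, for the hormone-assigned endocrine nuclei of each library. Each point is a nucleus, coloured by its class. The alpha nuclei hold at least 2 GCG UMIs by the rule and reach 287 in WT and 58 in PIGinH11, while their INS UMIs reach 4 and 7.

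The nuclei next to the borders of the rule show what the thresholds cut. Of the nuclei just inside, 11 WT and 10 PIGinH11 alpha nuclei held 2 GCG UMIs, and 90.9% and 90% of them held another alpha marker. Just outside, 12 WT and 18 PIGinH11 nuclei met the rest of the rule with 1 GCG UMI, and 83.3% and 88.9% of them held another alpha marker. TMEM132D was at 3780 and 3531 CPM just inside and at 1813 and 2764 CPM just outside. A further 4 and 13 nuclei were left out by the RBPJL limit and 6 and 5 by the limits on genes and UMIs, and every one of these held another alpha marker. By contrast, among 28 and 15 nuclei with 2 or more GCG UMIs but too low a share of endocrine genes, 7.14% and 13.3% did. The rule therefore left out nuclei that carried the same markers, which later serve as nuclei that the rule did not choose. Of these, the 6 and 5 outside the limits on genes and UMIs were deep, with medians of 15217.5 and 12793 UMIs. The medians in alpha nuclei were 3835 and 2722 UMIs.

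The alpha nuclei made up 0.432% (interval 0.327 to 0.560) of the 13189 WT and 0.436% (0.337 to 0.555) of the 14908 PIGinH11 nuclei within the limits on genes and UMIs. Among nuclei assigned to a hormone, they made up 23.2% (18.0 to 29.0) in WT and 26.3% (20.9 to 32.3) in PIGinH11. These shares differed by less than their counting intervals. Beta nuclei made up 67.5% and 55.1% of the same nuclei, and a further 46 and 137 endocrine nuclei held less than 2 UMIs of each hormone and were left unassigned. No barcode of an alpha nucleus occurred in the other library, although the libraries shared 60 barcodes.

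Depth differed between the libraries. The 57 WT alpha nuclei held 250853 UMIs, with a median of 3835 UMIs (677 to 10897) and 2003 genes per nucleus. The 65 PIGinH11 alpha nuclei held 208374 UMIs, with a median of 2722 UMIs (577 to 8604) and 1547 genes. Doublet scoring by Scrublet marked 2 WT and 0 PIGinH11 alpha nuclei, against 20 and 14 beta nuclei. It was run within the limits on genes and UMIs, so nuclei outside them were not scored.

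GCG (chromosome 15:68800557-68810268) had 1151 UMIs (4588 CPM) in WT and 783 UMIs (3758 CPM) in PIGinH11 alpha nuclei. The count per nucleus ran from 2 to 287 with a median of 9 in WT, and from 2 to 58 with a median of 7 in PIGinH11. A single WT nucleus held 24.9% of the GCG UMIs of its library. On the summed UMIs, PIGinH11 over WT gave a log2 ratio of −0.29 (−0.42 to −0.16), and −0.019 without the nucleus with most GCG in each library. As a mean of the shares of each nucleus it was 0.18, and with nuclei thinned to 500 UMIs 0.55. GCG took part in choosing the nuclei, and its direction turned with the way nuclei were weighted, so that no direction is given for it.

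Genes with the same contrast in both libraries were then sought between alpha nuclei and the beta and delta nuclei. Of 3018 genes with enough UMIs, 70 (2.32%) were at least 2-fold higher in alpha nuclei than in both beta and delta nuclei of both libraries, and 106 (3.51%) were at least 2-fold lower. GPC6, which encodes a glypican (a heparan sulfate proteoglycan of the cell surface), led the higher genes. GPC6 (chromosome 11:62436143-63560908) had 3010 CPM in WT and 2937 CPM in PIGinH11 alpha nuclei. In beta nuclei it had 138 and 72.9 CPM, in delta nuclei 14.8 and 0 CPM, and in gamma nuclei 1838 and 1306 CPM. The order was made among genes with at least 20 UMIs in the alpha nuclei of each library. It therefore holds GLI2, IRX2, CDA, A1CF and GLUD1, which had too few UMIs to be among the 3018 genes. Other genes at the top of this order were GLI2, IRX2, LPAR1, CDA, SLC7A8, A1CF, CPXM2, CPNE4, KCNIP4, SEMA6D, NELL2, LRP1B and GLUD1. They include the hedgehog transcription factor GLI2, the lysophosphatidic acid receptor LPAR1 and the semaphorin SEMA6D, which had 486 and 461 CPM in alpha and 38.1 and 25.9 CPM in beta nuclei. CPNE4, a calcium-dependent phospholipid-binding copine, had 2806 and 3249 CPM in alpha nuclei, 198 and 235 CPM in beta nuclei and 2586 and 1958 CPM in gamma nuclei. Several of these genes were also found in gamma nuclei, of which there were 5 in WT and 20 in PIGinH11. Beside GPC6 and CPNE4, KCNIP4 had 2867 and 2285 CPM there, SEMA6D 904 and 1166 CPM, LRP1B 1932 and 311 CPM, LPAR1 249 and 155 CPM and CDA 249 and 124 CPM, whereas GLI2 had 0 UMIs.

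SLC7A8 and GLUD1 among the leading genes handle amino acids and glutamate. SLC7A8 (chromosome 7:75854700-75921931), a transporter of neutral amino acids, had 1909 and 1171 CPM in alpha, 191 and 120 CPM in beta and 133 and 105 CPM in delta nuclei. GLUD1, glutamate dehydrogenase, was lower in number, with 37 and 22 UMIs in alpha nuclei (148 and 106 CPM, against 23.7 and 9.41 CPM in beta nuclei). Of the 27 genes of a list on amino acid transport and metabolism, 9 could be compared between classes at this depth, and 3 of them, among which SLC7A2 and SLC7A8, were at least 2-fold higher in alpha nuclei and none lower, beside 2.32% and 3.51% of all genes.

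The bottom of the order was taken among genes with at least 20 UMIs in beta or delta nuclei of each library. It held ASB9, PCSK1, GCGR, DGKB, KCTD16, VAT1L, ROBO1 and NEBL. Of these, GCGR had too few UMIs to be among the 3018 genes. ASB9, a subunit that recruits targets for ubiquitin transfer, had no UMI in the alpha nuclei of either library and 346 and 198 UMIs in beta nuclei. GCGR, the glucagon receptor, had no UMI in alpha nuclei and 59 and 27 UMIs in beta nuclei, or 77.5 and 63.5 CPM, while 3 UMIs over the alpha nuclei would be 12.0 and 14.4 CPM. PCSK1, the convertase that cuts proinsulin, had 1 and 0 UMIs in alpha nuclei and 136 and 94 UMIs in beta nuclei. The diacylglycerol kinase DGKB had 2 and 5 UMIs in alpha nuclei and 927 and 796 UMIs in beta nuclei. ROBO1, a receptor for Slit guidance proteins, had 5 and 4 UMIs in alpha nuclei and 4946 and 6423 CPM in delta nuclei. KCTD16, VAT1L and NEBL had between 1 and 8 UMIs in the alpha nuclei of a library.

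**Figure D2:**
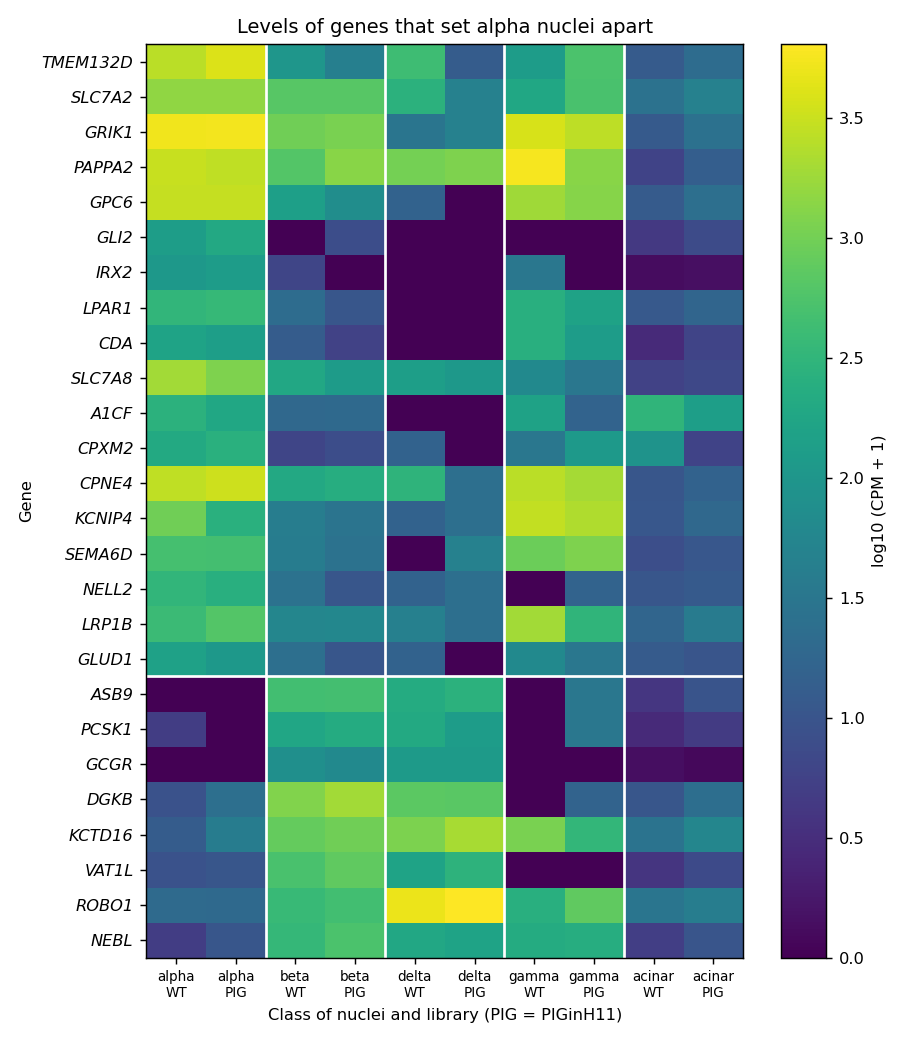
Levels (log10 of CPM plus 1, colour) of 4 alpha markers, 14 genes among the highest and the 8 genes lowest in alpha nuclei relative to beta and delta nuclei, in 5 classes of nuclei and both libraries. The rows above the white line are brighter in the alpha than in the beta and delta columns, and GRIK1, GPC6, CPNE4, KCNIP4, SEMA6D and LRP1B are also bright in gamma nuclei. The rows below it are dark in the alpha columns, where ASB9 and GCGR had 0 UMIs.

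The other gene groups of the alpha cell follow in the order from transcription to release. Their counts stand beside 2.32% of all genes higher and 3.51% lower in alpha nuclei, and a single gene called in a list is given for itself and not as a result about the list. Most transcription factors of alpha cells were sparse. FEV had 1 and 0 UMIs. Of the factors that endocrine cells share, RFX6 had 292 and 265 UMIs and PAX6 94 and 66 UMIs, and none of 9 compared was 2-fold higher or lower. Among factors attributed to other islet cells, ETV1 (59 and 78 UMIs) was higher in alpha than in beta and delta nuclei.

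Of the genes of prohormone processing and secretory granules, 10 were compared, none was higher in alpha nuclei and 3 were lower, beside 2.32% and 3.51% of all genes. These were PCSK1, the carboxypeptidase CPE and chromogranin A, CHGA. CPE had 259 and 221 CPM in alpha nuclei, against 641 and 781 CPM in beta nuclei. CHGA, a matrix protein of granules, had 39.9 and 57.6 CPM in alpha nuclei and 414 and 638 CPM in beta nuclei. PTPRN2, a transmembrane protein of dense-core granules, had the most UMIs of the group, with 633 and 644 in alpha nuclei.

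Of 5 glutamate receptor genes compared, the kainate receptor GRIK1 was higher in alpha nuclei, with 5370 and 5505 CPM against 953 and 1104 CPM in beta and 29.6 and 46.5 CPM in delta nuclei. GRIK1 was also found in the 5 and 20 gamma nuclei, with 122 and 174 UMIs. The metabotropic receptor GRM5 was lower, with 3 and 21 UMIs in alpha nuclei and 2645 and 1033 CPM in beta nuclei. Of 11 calcium channel genes compared, the auxiliary subunits CACNB4 (1618 and 1161 CPM) and CACNA2D2 (116 and 149 CPM) were higher in alpha nuclei and none was lower. CACNB2 had the most UMIs of the group, 893 and 892. Of 19 potassium and sodium channel genes compared, 3 were higher and none lower, beside 2.32% and 3.51% of all genes. These were the inward rectifier KCNJ3, the calcium-activated channel KCNN2 and KCNIP4, which binds voltage-gated potassium channels. KCNN2 had 474 and 509 CPM in alpha nuclei, against 77.5 and 25.9 CPM in beta nuclei.

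In the machinery of exocytosis, 22 genes were compared, and ERC2, a protein of the release site, was higher in alpha nuclei and STXBP5, a tomosyn that restrains fusion, was lower. ERC2 had 251 and 346 CPM in alpha nuclei and 42.1 and 16.5 CPM in beta nuclei. STXBP5 had 79.7 and 72.0 CPM in alpha nuclei and 925 and 847 CPM in beta nuclei. In cyclic AMP signalling, 12 genes were compared, and 1 of them, the phosphodiesterase PDE7B, was lower. PDE4D, which breaks down cyclic AMP, had 1437 and 1194 UMIs in alpha nuclei, with 5728 and 5730 CPM against 3568 and 3932 CPM in beta and 503 and 639 CPM in delta nuclei, so it did not pass the fold of 2 against both. The receptors that set glucagon secretion were sparse, and none of 5 compared passed the fold of 2. GIPR, the receptor that GIPRdn derives from, had 18 and 12 UMIs in alpha nuclei, and GLP1R had 3 and 2. In glucose handling, the transporter SLC2A2 had 1 and 0 UMIs in alpha nuclei and 915 and 715 CPM in beta nuclei, and was the only one of 6 compared that passed the fold of 2.

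Of 33 genes of neuronal adhesion and guidance compared, 7 were higher in alpha nuclei (NLGN1, CSMD3, PCDH9, LRP1B, DPP6, GPC6 and MAGI2) and 2 were lower (CNTN4 and ROBO1), beside 2.32% and 3.51% of all genes. PCDH9, a protocadherin, had 3863 and 5164 CPM in alpha nuclei and 343 and 362 CPM in beta nuclei. PCDH9 was also found in the 5 and 20 gamma nuclei, with 50 and 215 UMIs. NLGN1, a neuroligin, had 777 and 758 CPM in alpha nuclei and 48.6 and 18.8 CPM in beta nuclei, and is also on the list of gamma markers used here. A further list holds the alpha genes that the study chose on the same libraries, so it is not independent evidence. Of its 32 matched genes, 11 were higher in alpha nuclei and none lower.

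The alpha nuclei also varied among themselves. For each gene with at least 50 UMIs in a library, the variation over nuclei was set against that expected from depth alone, as a chi-square divided by its degrees of freedom, for which 1 means no more than counting error. Its median was 1.53 over 940 genes in WT and 1.58 over 749 genes in PIGinH11, and the 90th percentiles were 3.16 and 2.86. GCG stood at 30.5 in WT and 8.58 in PIGinH11, and its WT value rested in part on the nucleus with 287 UMIs. LRP1B, a large lipoprotein receptor, stood at 15.7 in WT, where 12 nuclei held its 98 UMIs and 1 of them 37.8%. In PIGinH11 it stood at 5.93, with 128 UMIs in 34 nuclei. KCNIP4 stood at 11.9 in WT and was found in 28 of 57 nuclei, TRPM3, a cation channel, at 10.2 in 15 nuclei, and SGCZ, a sarcoglycan, at 9.84 in 14 nuclei. In PIGinH11, KCNIP4 stood at 5.64 and SGCZ at 7.83, and TRPM3 at 3.75 with 28 UMIs, below the minimum of 50. KCNIP4 and TRPM3 are gamma markers and SGCZ is a delta marker on the lists used here. However, SGCZ had 2746 and 2981 CPM in beta and 2586 and 3994 CPM in gamma nuclei. These levels were above its 2236 and 2346 CPM in delta nuclei. PRSS2, the acinar trypsinogen, stood at 39.1 and 33.6. The ductal marker SLC4A4 stood at 23.8 in WT, above LRP1B, and the acinar enzyme CPA1 stood at 7.92 in WT and 27.7 in PIGinH11.

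Between the libraries, 1957 genes with at least 50 UMIs in the alpha nuclei were compared, with a median log2 ratio of 0.01. Of these, 58 (2.96%) were at least 2-fold higher in the PIGinH11 alpha nuclei and 63 (3.22%) at least 2-fold lower. With free RNA subtracted, the counts were 515 higher and 155 lower of the same 1957 genes, so both the shares and their balance depend on that step. These counts describe the 2 libraries, and differences between the animals, the pieces of tissue and the libraries cannot be told apart.

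The largest difference was that of GPC5 (chromosome 11:60791000-62149911), a glypican whose gene lies next to GPC6 without overlapping it. It had 0 UMIs in the 57 WT alpha nuclei and 470 UMIs (2256 CPM, 2056 to 2469) in 49 of the 65 PIGinH11 alpha nuclei. Against a floor of 3 UMIs over the WT alpha nuclei (12.0 CPM), GPC5 was at least 188-fold higher in PIGinH11. With counting error in both libraries, the lower limit of the exact interval of its log2 ratio was 7.26. The libraries did not overlap except at 0, where all WT nuclei and 16 PIGinH11 nuclei stood. These 16 nuclei were shallower than the 49, with medians of 1627.5 and 2845 UMIs. The highest nucleus held 42 UMIs, which is 8.94% of the total, so the difference did not rest on 1 nucleus. At 500 UMIs per nucleus, 58.5% of PIGinH11 alpha nuclei kept a UMI of GPC5, against 2.26% of PIGinH11 acinar nuclei (6.28% before thinning). The 0 of 57 WT nuclei allows a share of nuclei with a UMI of up to 5.26% by a limit of 3 counts and of up to 6.27% by the exact interval. Since 4.98% of WT acinar nuclei held a UMI, a share in WT alpha nuclei below that of acinar nuclei was not detectable with 57 nuclei.

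GPC5 was then read in nuclei that the rule had not chosen. Over the nuclei with 1 GCG UMI, too much RBPJL or a depth outside the limits, 22 WT nuclei held 3 UMIs and 36 PIGinH11 nuclei held 184 UMIs, a log2 ratio of 6.01 (4.44 to 8.30). Each of the 3 sets had the same direction, with 2 and 73, 0 and 18, and 1 and 93 UMIs. In the unassigned endocrine nuclei with no GCG UMI, which do not overlap these sets, it had 2 and 98 UMIs (4.25, 2.36 to 7.32), and in the few gamma nuclei 0 and 2 UMIs. In delta nuclei GPC5 was present in both libraries, with 44 and 58 UMIs (652 and 674 CPM), a log2 ratio of 0.05 (−0.54 to 0.65). In beta nuclei it had 11 and 19 UMIs (14.5 and 44.7 CPM). In acinar nuclei it had 14.1 and 34.6 CPM, and in ductal nuclei 11.3 and 65.6 CPM. The neighbouring GPC6 had a log2 ratio of −0.04 (−0.19 to 0.12) in alpha nuclei, so the adjacent glypican did not share the difference. Whether GPC5 differs between pigs of the 2 genotypes was not tested, because each is 1 animal.

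**Figure D3:**
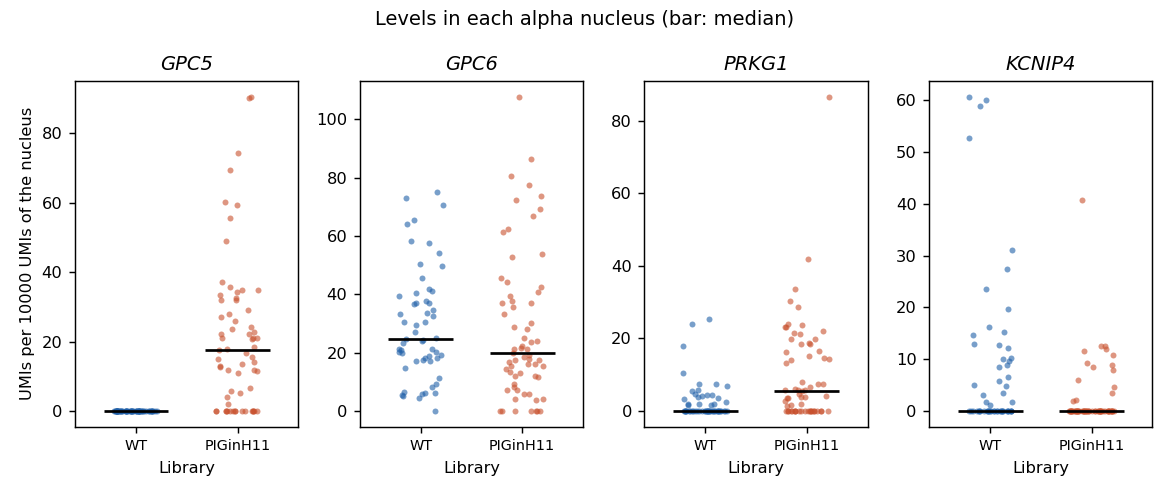
Levels of GPC5, GPC6, PRKG1 and KCNIP4 (y axis, UMIs per 10000 UMIs of the nucleus) in each of the 57 WT and 65 PIGinH11 alpha nuclei. Points are nuclei and bars are medians. GPC5 is at 0 in all WT nuclei and has a median of 17.6 in PIGinH11, while the median of GPC6 is 24.8 and 19.9.

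The other genes at the top for PIGinH11 were SLIT3, EPHA6, FBXL7, PRKG1, GALNTL6, HECW1, SGCZ, ACER3, PPM1L and PNLIPRP1. PRKG1 (chromosome 14:97558531-98793080), a kinase that cyclic GMP activates, had 63 UMIs in 22 WT nuclei and 216 UMIs in 43 PIGinH11 nuclei, a log2 ratio of 2.05 (1.63 to 2.47). Its ratio in beta nuclei was 0.34 (−0.86 to 1.49), and in the nuclei just outside the rule 1.07 (0.53 to 1.64). PRKG1 had 0 and 27 UMIs in delta nuclei. In the unassigned endocrine nuclei with no GCG UMI it had 5 and 51 UMIs (1.99, 0.67 to 3.67), and its ratio was 0.54 in acinar and 1.45 in ductal nuclei. PRKG1 is also a stellate marker. Of the 4 other stellate markers, COL1A1, COL1A2 and PDGFRB had 0 UMIs in the alpha nuclei of both libraries, and DCN, which encodes the matrix protein decorin, had 3 and 9 UMIs (12.0 and 43.2 CPM). The part of stellate cells in the difference was not tested. FBXL7, an F-box protein, had 49 and 176 UMIs, a log2 ratio of 2.11 (1.65 to 2.60) that was 1.01 when nuclei were thinned to 500 UMIs. FBXL7 had 0.54 (0.06 to 1.03) just outside the rule, 0.79 in beta, 1.90 in delta and 1.34 in acinar nuclei. SLIT3, a secreted ligand of Robo receptors, had 7 and 54 UMIs (3.22, 2.07 to 4.60) in alpha nuclei. Its level there, 27.9 and 259 CPM, was below the 1370 and 2125 CPM in acinar and 1386.5 and 1379.5 CPM in ductal nuclei. SLIT3 had no ratio with free RNA subtracted or with nuclei thinned to 500 UMIs. Its ratio was −0.48 in beta, 1.82 (0.22 to 3.84) in delta, 3.08 (0.41 to 8.47) in gamma and 0.63 in acinar nuclei. The guidance receptor EPHA6 had 16 and 75 UMIs in alpha nuclei (2.50), with ratios of 1.04 in beta, 2.83 in acinar and 2.36 in ductal nuclei. The ligase HECW1 had 114 and 264 UMIs (1.48), with ratios of 0.38 in beta, 1.23 in acinar and 2.35 in ductal nuclei, and 2.20 in alpha nuclei thinned to 500 UMIs. In delta nuclei HECW1 had 10 and 5 UMIs (−1.35, −3.25 to 0.33), and in gamma nuclei 1 and 29 (3.85, 1.26 to 9.21). GALNTL6, of the family that starts mucin-type glycosylation, had 192 and 494 UMIs (1.63), with ratios of 0.90 in beta and 1.39 in acinar nuclei. In delta nuclei GALNTL6 had 113 and 143 UMIs (−0.01, −0.38 to 0.36), and in gamma nuclei 69 and 116 (−0.25, −0.70 to 0.20).

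Not all of these differences were found again just outside the rule. The values there pool 3 sets, which could differ in direction, and the few deep nuclei outside the limits can weigh heavily in them. GALNTL6 and HECW1 both had a ratio of 0.96 there, with 1.64 and 2.92 in the nuclei with 1 GCG UMI and −0.56 and 3.19 in those with too much RBPJL. EPHA6 had too few UMIs there to show a difference, with 8 and 7 (−0.12, −1.81 to 1.54), and SLIT3 had 0.46 with an interval that included 0 (−0.06 to 1.00). For SLIT3, the nuclei with too much RBPJL had 12 and 51 UMIs (1.03, 0.10 to 2.07). Those with 1 GCG UMI had 7 and 3 (−1.23, −3.81 to 0.91), and those outside the limits 36 and 18 (−0.51, −1.42 to 0.34). SGCZ, with 94 and 214 UMIs in 14 and 21 alpha nuclei, had −1.33 (−1.75 to −0.92) over the 3 sets together. In the nuclei with 1 GCG UMI, however, it had 25 and 26 UMIs (0.05, −0.80 to 0.91). It was lower in both other sets, with 24 and 21 UMIs (−1.25, −2.17 to −0.34) in the nuclei with too much RBPJL and 136 and 23 UMIs (−2.08) outside the limits. COL23A1, a transmembrane collagen chosen after its values were seen, had 3 UMIs in 2 WT and 69 UMIs in 22 PIGinH11 alpha nuclei (4.79, 3.18 to 7.10), but 11 and 7 UMIs just outside the rule. All 11 WT UMIs lay in the nuclei outside the limits, and each of the other 2 sets had 0 and 2 UMIs. ACER3 and PPM1L, with log2 ratios of 1.80 and 1.71 in alpha nuclei, had −0.03 and 0.18 in beta nuclei, and the ratio of PPM1L in alpha nuclei was 0.81 when thinned to 500 UMIs. PPM1L had 0 and 11 UMIs in delta nuclei and a ratio of 0.88 in acinar nuclei, and ACER3 had 0.34 in delta and −0.02 in acinar nuclei. PNLIPRP1, a lipase-related protein of acinar cells, had 1.23 in alpha and 1.51 in acinar nuclei, so it was higher in both.

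Of the 10 genes lowest in PIGinH11 alpha nuclei, 6 encode secreted acinar proteins, namely PRSS2, CELA2A, PLA2G1B, CTRC, CPB1 and CLPS. PRSS2 had 3508 UMIs in 57 of 57 WT alpha nuclei and 353 UMIs in 62 of 65 PIGinH11 alpha nuclei (−3.05, −3.21 to −2.89), and 1 PIGinH11 nucleus held 37.4% of its UMIs. The same gene had ratios of −4.40 in beta and −2.30 in acinar nuclei. The 10 acinar enzymes together had 25054 and 5960 CPM in alpha nuclei, 34814 and 4386 CPM in beta nuclei and 67248 and 38762 CPM in acinar nuclei. Of the enzymes, 9 had a UMI in alpha nuclei of each library and PRSS2 was the most abundant by UMIs. The 7 acinar genes that are neither enzymes nor RBPJL, which the rule used, all had a UMI. Their sum was 1483 and 1996 CPM in alpha and 16728 and 14038 CPM in acinar nuclei, and CDH4 was the most abundant by UMIs. The part of RNA from acinar cells in these differences was not tested.

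The remaining 4 of the 10 lowest genes were MT1A, MT1X, TPT1 and KCNIP4. The metallothioneins, which bind zinc and copper, were at 143 and 6 UMIs for MT1A and 101 and 8 UMIs for MT1X, and both were also lower in beta nuclei (−3.26 and −3.60) and in acinar nuclei (−2.01 and −2.26). PRSS2 and the metallothioneins belong to families of similar genes, between which counts may be divided, so their levels are uncertain. TPT1, a protein of growth control, had 83 and 13 UMIs and was also lower in beta (−2.70), delta (−2.89) and acinar nuclei (−1.60). KCNIP4 (chromosome 8:15211916-16346358) differed from these in that its ratio was −1.88 (−2.33 to −1.45) in alpha nuclei, with 243 UMIs in 28 nuclei and 55 UMIs in 15 nuclei, and −0.48 (−1.58 to 0.53) in beta nuclei. It was also lower in the nuclei just outside the rule, where 61 and 4 UMIs were counted. With nuclei thinned to 500 UMIs its ratio was −0.67.

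SLC7A8, which was higher in alpha than in beta and delta nuclei of both libraries, was lower in PIGinH11 alpha nuclei by less than the fold of 2. It had −0.71 (−0.93 to −0.48) in alpha, −0.67 in beta and −0.59 just outside, but 0.02 in the nuclei with 1 GCG UMI. With free RNA subtracted, its ratio in alpha nuclei was −1.01. The sulfonylurea receptor ABCC8, a subunit of the KATP channel, had 525 and 730 UMIs in alpha nuclei, with 0.74 (0.58 to 0.91) in alpha, 0.15 in beta and 0.68 just outside, where the nuclei with 1 GCG UMI had 1.17 and those with too much RBPJL −0.54.

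**Figure D4:**
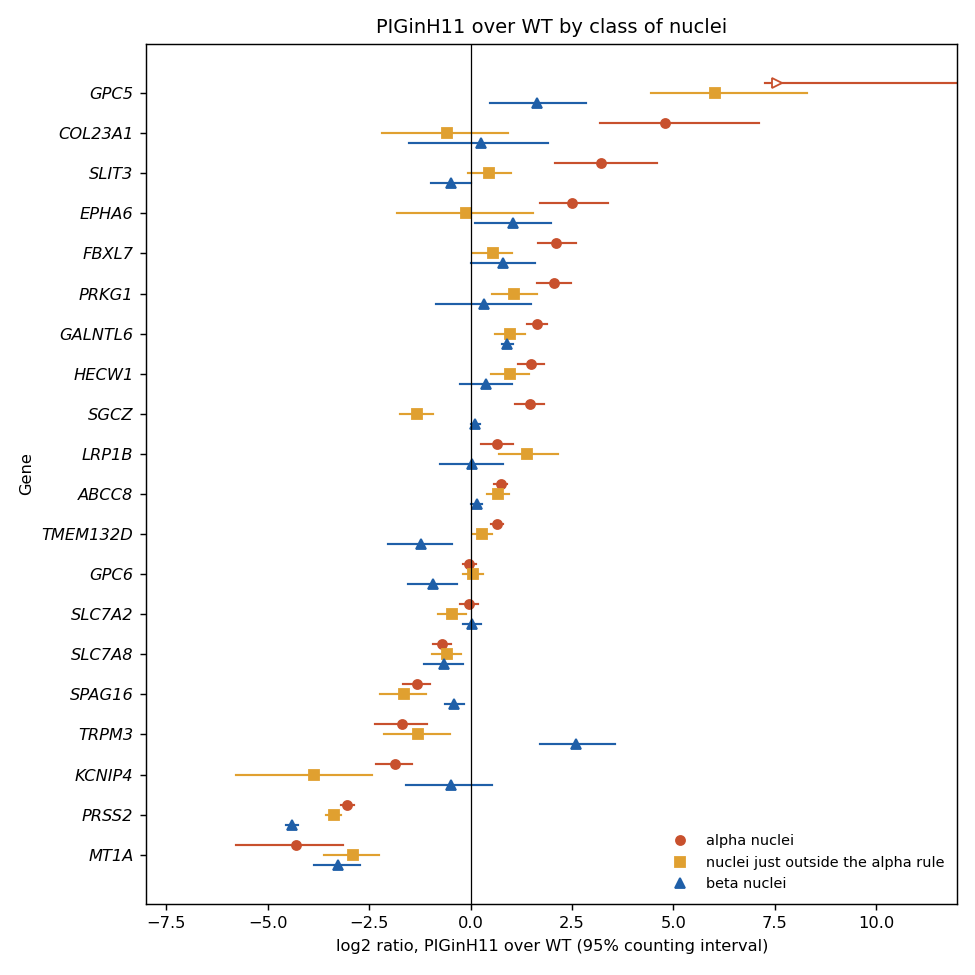
Log2 ratio of PIGinH11 over WT (x axis) with its 95% counting interval for 20 genes (y axis) in alpha nuclei (circles), nuclei just outside the alpha rule (squares) and beta nuclei (triangles). For GPC5, which had 0 UMIs in WT alpha nuclei, the open triangle marks the ratio against a floor of 3 UMIs, and the line starts at the lower limit of the exact interval, 7.26, and runs on past the axis. GPC5 is far to the right in alpha nuclei and just outside the rule, whereas SGCZ and COL23A1 are to the right of 0 in alpha nuclei and to the left of it just outside the rule, where COL23A1 has an interval that includes 0.

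The medians of the lists on alpha-cell function lay between −0.34 and 0.51, beside 0.01 over all genes. Most were near 0, and the sign of 14 of the 21 list medians recomputed changed under at least 1 alternative, so no direction is given for them. For the 9 genes of amino acid transport and metabolism with at least 50 UMIs the median log2 ratio was 0.12, with 2 past a fold of 2 and both higher, beside 2.96% higher and 3.22% lower over all genes. These were SLC43A2, a transporter of neutral amino acids, with 21 and 38 UMIs (1.12, 0.32 to 1.97), and CASR, the calcium-sensing receptor, with 13 and 38 UMIs (1.82, 0.87 to 2.85). CASR had 2.06 in beta nuclei, 1.05 in acinar nuclei and 0.45 (−0.85 to 1.80) just outside the rule. In granule genes the median was −0.20 over 8, and TTR, transthyretin, was lower, with 112 and 45 UMIs (−1.05, −1.58 to −0.54), and 0.16 in beta nuclei. Calcium channel genes had a median of 0.27 over 9 and glutamate receptor genes 0.51 over 3, and none passed a fold of 2. Potassium and sodium channel genes had a median of −0.05 over 17, with KCNIP4 lower.

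The counts of the remaining lists stand beside the same 2.96% and 3.22% of all genes. Exocytosis genes had a median of 0.10 over 15, and SYT13, a synaptotagmin, was higher with 33 and 70 UMIs (1.35, 0.74 to 2.00). It was also higher just outside the rule, at 2.07. Cyclic AMP genes had a median of 0.05 over 10, and the cyclase ADCY9 was higher with 20 and 35 UMIs (1.08, 0.24 to 1.95). PDE4D had a ratio of 0.00. In adhesion and guidance genes the median was 0.12 over 25, with SLIT3, GPC5 and the phosphatase PTPRT higher and none lower. The 4 glucose genes had a median of 0.35, the 4 genes of endoplasmic reticulum folding −0.23 and the 2 receptor genes −0.34, with none past a fold of 2. Transcription factors had medians of −0.14 over 5 endocrine factors and −0.15 over 4 factors of other islet cells, with none past a fold of 2. Over the 32 genes of the list of alpha genes, the median was 0.02 and 1, SPAG16, was lower (314 and 104 UMIs, −1.33), and −1.65 just outside the rule. That value rested on the nuclei outside the limits (86 and 5 UMIs), while the nuclei with 1 GCG UMI gave −0.49 (−1.39 to 0.39) and those with too much RBPJL 0.08.

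**Figure D5:**
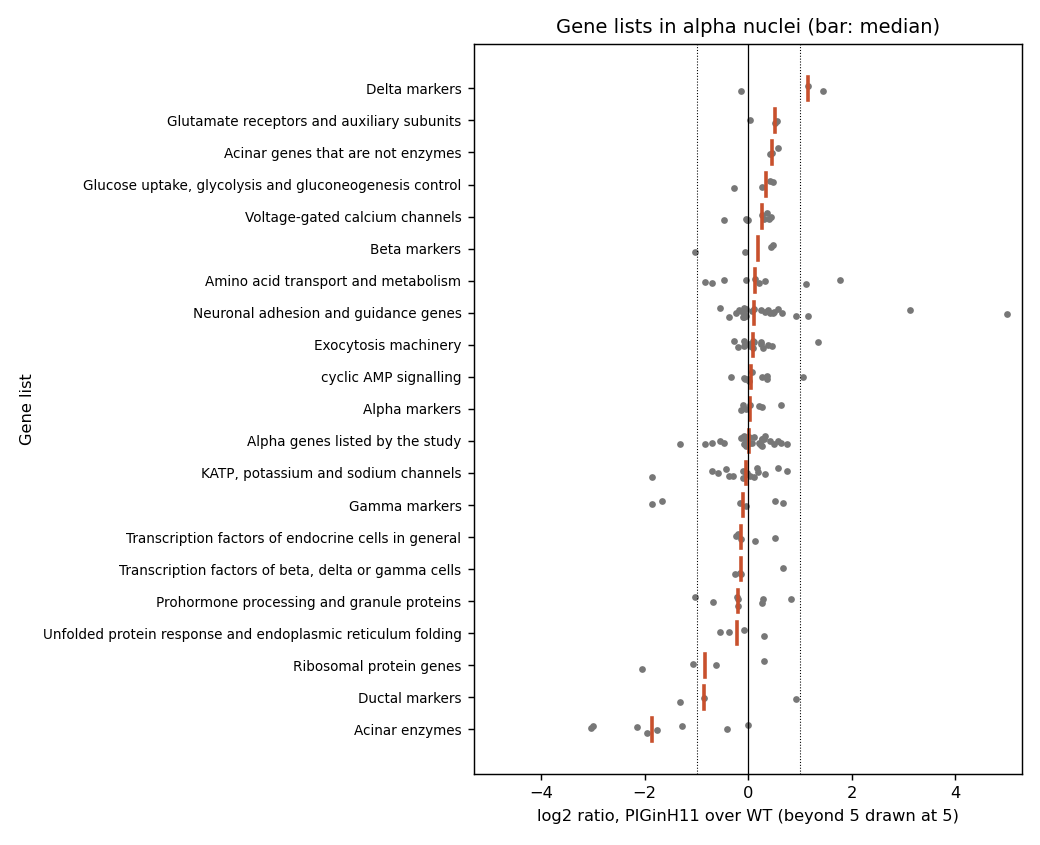
Log2 ratio of PIGinH11 over WT in alpha nuclei (x axis) for the members, outside the rule genes, of each list with at least 3 genes of 50 UMIs or more (y axis). Grey points are genes, bars are medians and dotted lines mark a fold of 2 (GPC5 is drawn at 5). The medians of the lists on alpha-cell function lie between −0.23 and 0.51, and those of acinar enzymes and of ribosomal protein genes lie at −1.86 and −0.84. With free RNA subtracted, 8 of the 8 enzymes and 3 of the 4 ribosomal protein genes were left at 0 in both libraries.

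Markers of other cell types and genes that bear on RNA quality were read in the same nuclei. Ribosomal protein genes summed to 3452 and 1756 CPM in alpha nuclei, with 57 of 59 genes present in each library and a median log2 ratio of −0.84 over 4 genes, and they also differed in acinar nuclei (5154 and 3460 CPM). Mitochondrially encoded genes summed to 753 and 139 CPM, with 12 and 9 of 13 genes present. Of the heat-shock and immediate-early genes, 1 had enough UMIs to be compared (HSP90AA1, −0.28), and HSP70.2 had 19 and 0 UMIs in alpha nuclei. Ductal markers were present for 7 of 7 genes and summed to 1563 and 878 CPM, with SLC4A4 the most abundant by UMIs (213 and 71) and lower in PIGinH11. The median log2 ratio of 3 ductal markers was −0.85, but −0.24 without the nuclei that Scrublet marked and −0.06 as a mean over nuclei. It was −0.19 with thinning and −3.24 with free RNA subtracted. The sums for the markers of the other islet cells leave out INS, SST and PPY, which the rule used. Beta markers summed to 2635 and 3076 CPM, led by CACNA1D, and CA10 and PDX1 were at 0 in PIGinH11. Delta markers summed to 1427 and 2510 CPM, with HHEX, a delta-cell transcription factor, at 0 in both libraries, PTPRT and SGCZ higher, and RFX2 and SGCZ the most abundant by UMIs in WT and PIGinH11. SGCZ, which was higher in beta than in delta nuclei, made up 1027 of the 2510 CPM in PIGinH11. Gamma markers summed to 3209 and 2472 CPM, led by KCNIP4 and NLGN1, with TRPM3 and KCNIP4 lower in PIGinH11. Stellate markers summed to 263 and 1080 CPM, nearly all of it PRKG1. Endothelial markers summed to 47.8 and 106 CPM, with 6 of 6 genes present and FGD5 and PTPRB the most abundant by UMIs, and macrophage markers to 23.9 and 9.60 CPM, led by MRC1 and with CD163 and CSF1R at 0. Schwann markers summed to 183 and 120 CPM, nearly all of it SCN7A. The alpha markers themselves, without GCG, summed to 15814 and 17171 CPM, led by GRIK1, with FEV at 0 in PIGinH11. The part of these cell types and of RNA quality in the differences between the libraries was not tested.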

How the data were processed

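The authors aligned reads to Sscrofa11.1, counted UMIs with Cell Ranger and deposited raw count matrices of 31908 genes. The submitters' processing notes give Cell Ranger 3.1.0 and Seurat 3.1.1, and the file headers give Cell Ranger 5.0.0. Doublets were not removed, and Scrublet (scanpy 1.11.5) was an alternative. The members and the gene lists were chosen with earlier results of these data known. A symbol was missing for 15410 genes, of which 841 were named from RefSeq, the source of the coordinates. UMIs were summed per class and library (CPM). Intervals were Clopper–Pearson for shares, Poisson for CPM and conditional binomial for ratios (SciPy 1.17.1). Ratios between libraries needed 50 UMIs over both libraries. The contrast of alpha with beta and delta nuclei needed 50 UMIs over these classes in each library. Acinar nuclei held 3 RBPJL UMIs, and ductal nuclei 10 UMIs and 1% of ductal markers. Named were the 15 genes with the largest smallest ratio of alpha over beta and delta nuclei, the 8 with the most negative largest ratio, the 10 highest and 10 lowest by the interval bound nearest 0 for PIGinH11 over WT (at least 5 UMIs in each), list members past a fold of 2 and the most abundant. The computation was tested on simulated counts that held counting error only, without further variation between nuclei. Some genes are not reported here.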

Additional observations from a re-analysis of the deposited data

Results flagged for a closer look

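Of 476 genes of the lists and named genes with UMIs in alpha and beta nuclei, 13 had opposite directions of PIGinH11 over WT in the classes, with counting intervals that lay on opposite sides of 0. In alpha nuclei 9 were higher and 4 lower. No fold was required, and some of the 476 genes were named for their difference in alpha nuclei. The share over all genes was not computed. PTPRT, a receptor phosphatase of the cell surface, had a log2 ratio of 1.16 (0.79 to 1.53) in alpha and −0.88 in beta nuclei. TMEM132D, the alpha marker, had 0.64 (0.49 to 0.79) in alpha and −1.22 (−2.05 to −0.46) in beta nuclei, and 0.29 just outside the alpha rule. The adhesion genes LSAMP, NEGR1 and CNTN5 had log2 ratios of 0.51, 0.57 and 0.25 in alpha nuclei and −0.78, −0.65 and −0.18 in beta nuclei. Just outside the alpha rule LSAMP had −0.59 (−0.82 to −0.35), with 0.42 (−0.01 to 0.86) in the nuclei with 1 GCG UMI. The cadherin CDH4 had 0.57 in alpha and −0.88 in beta nuclei. The calcium channel subunits CACNA1D and CACNA1C had 0.44 and −1.12 in alpha nuclei and −0.31 and 0.69 in beta nuclei. GRM5, with 3 and 21 UMIs in alpha nuclei, had 3.08 there and −1.36 in beta nuclei. CNTN4, with 2 and 12 UMIs, had 2.85 in alpha and −0.48 in beta nuclei.

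Among the genes lower in PIGinH11 alpha nuclei, TRPM3, a cation channel, had −1.69 (−2.35 to −1.08) in alpha and 2.59 in beta nuclei. PLCXD3, which is listed among the beta markers, had −1.05 (−1.64 to −0.48) in alpha and 0.17 in beta nuclei. IGF1R, a growth factor receptor, had −0.27 (−0.50 to −0.04) in alpha and 0.14 in beta nuclei. The difference between the classes was not tested, since each group has 1 library and the intervals cover counting error only.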

How the results depend on the processing

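A recomputed value counted as close when it lay within the counting interval, or for a count within 1.5 times. A list median counted as close when it moved by no more than its standard error over genes or a small fixed step. Of 344 values recomputed under alternatives, 279 stayed close, 63 moved further and 2 called values turned direction. Both turns were those of GCG. Its log2 ratio was 0.18 as a mean over nuclei, 0.55 with nuclei thinned to 500 UMIs, −0.45 with GCG at least 3 times each other hormone, −0.59 with free RNA subtracted and −0.019 without the nucleus with most GCG, an alternative chosen after seeing the data. A GCG minimum of 5 UMIs gave 0.265% and 0.262% of nuclei within limits and 15.6% and 17.6% of hormone-assigned nuclei. Genes at least 2-fold higher and lower in PIGinH11 were 9 and 13 of 147 genes compared with thinning, 515 and 155 of 1957 with free RNA subtracted, 297 and 284 of 4341 with a minimum of 20 UMIs, and 21 and 29 of 862 with one of 100 UMIs, against 58 and 63 of 1957. Genes higher in alpha than in beta and delta nuclei were 12 of 282 compared with thinning and 112 of 3018 with free RNA subtracted, against 70 of 3018. The causes of these moves were not tested, beyond the fewer or more genes that a minimum leaves. Of 146 recomputed ratios of named genes, 16 moved beyond their interval and none turned. SLIT3 and EPHA6 had no ratio with thinning. With free RNA subtracted, there was none for SLIT3, ACER3, PPM1L, PNLIPRP1 and the lowest genes other than KCNIP4. Of 126 recomputed list medians, 30 moved and 23 changed sign, in 14 of 21 lists, 10 of them with free RNA subtracted and 6 with thinning. With free RNA subtracted, the medians of calcium channels, exocytosis and amino acid genes were −0.034, −0.21 and −0.18, and thinned, those of the endocrine factors and of the other islet factors were 0.16 and 0.34. The median of the 4 glucose genes, 0.35, was 1.10 with free RNA subtracted, 0.88 thinned and −0.031 as a mean over nuclei. The subtraction left 385 of 1957 genes at 0 in both libraries, among them the 8 acinar enzymes, and the median of ribosomal protein genes was −1.40 with thinning. No paired analysis was possible because each group has 1 library, and no library could be left out. Depth limits sparse genes such as IRX2 and the receptors, whose 3 UMIs correspond to 12.0 and 14.4 CPM.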

Other observations

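The 46 WT and 137 PIGinH11 endocrine nuclei left unassigned for want of 2 UMIs of any hormone include the 12 and 18 nuclei with 1 GCG UMI described above. The other 34 and 119 had no GCG UMI and were shallow, with medians of 1594 and 978 UMIs. At least 1 of TMEM132D, SLC7A2 and IRX2 was found in 70.6% and 40.3% of them, against 73.5% and 68.4% of beta nuclei and 12.4% and 12.5% of acinar nuclei, so these markers do not assign them to a class. GPC5 had 2 and 98 UMIs in these nuclei (31.6 and 603 CPM), and KCNIP4 had 1027 and 695 CPM.

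PDK4, a kinase that holds back pyruvate oxidation, was below the minimum of 50 UMIs and was chosen after its values were seen. It had 5 UMIs in WT and 31 UMIs in PIGinH11 alpha nuclei, a log2 ratio of 2.90 (1.52 to 4.62), with 1.55 in beta and 1.72 in acinar nuclei. Just outside the alpha rule it had 5 and 36 UMIs, of which 0 and 27 lay in the nuclei left out by the RBPJL limit, while the nuclei with 1 GCG UMI held 2 and 3 (0.58, −2.54 to 4.16).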
